A study of Mus musculus with 55 samples.

Results

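The comparison set vehicle-treated mice of the Pon1 knockout against vehicle-treated wild-type mice, across every gene that the array annotation names with 1 symbol. Samples were taken by title, which gave 4 arrays labelled KO and 6 labelled WT, 10 of the 55 arrays of the series. Of 35557 probe sets, 21789 carried 1 symbol and stood for 19938 genes. Of these, 14950 passed a filter on low levels and were tested.

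The study dosed mouse pups with chlorpyrifos oxon (CPO), the active form of the insecticide chlorpyrifos, and measured RNA of the cerebellum on Affymetrix Mouse Gene 1.0 ST arrays. The KO group had genotype Pon1-/- and the WT group Pon1+/+, both on C57Bl/6. Pups of both groups received dimethyl sulfoxide (DMSO) under the skin every day from postnatal day 4 to 21, and the tissue was taken on day 22. Further genotypes of the series, tgHuPON1Q192 and tgHuPON1R192, carry human PON1 transgenes, and the labels do not say what drives the transgene or whether their own Pon1 is intact. The labels give neither sex nor litter, nor do they say which part of Pon1 was disrupted, whether KO and WT were littermates, or that each array is a separate animal. The p-values therefore measure only the spread between these samples, which may be technical. A number in the array descriptions, whose meaning is not stated, takes 3 values among the arrays labelled KO and 4 among the WT arrays. None of these values is in both groups, so they cannot be told apart from genotype. WT replicates 4, 5 and 6, all the WT vehicle arrays of the second array date, share 1 value, and KO replicates 2 and 3 share another. The submitters attribute the uneven group sizes to quality problems.

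Paraoxonase 1, the product of Pon1, is an esterase made mainly in liver and carried in blood on high-density lipoprotein. It hydrolyses CPO and other organophosphate oxons before they reach acetylcholinesterase, the enzyme that breaks down acetylcholine at synapses. Pon2 and Pon3 are its neighbours on the same chromosome and encode related lactonases. The vehicle comparison asks what differs between the lines before any CPO is given.

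Pon1 itself was read first as a check of the labels. It was higher in the arrays labelled KO, and this cannot settle whether the labels hold. On the log2 scale of the array, its levels in the arrays labelled KO were 10.35, 9.95, 10.03 and 10.29. In WT vehicle arrays the lowest was 4.88, the median 5.17 and the highest 5.55. Every array labelled KO was thus far above every WT array. The fitted log2 difference was +4.95 (SE 0.125, limma adjusted p = 5.65e-34), but the WT levels lay under the filter level of 6.44, so its size is bounded by array background and is not turned into a fold. Pon1 was also high in the transgenic vehicle arrays, at 9.93 to 10.17 in Q192 and 10.02 to 10.27 in R192. In WT arrays given CPO it stayed low, at 4.90 to 5.49 at 0.35 mg/kg/day and 4.79 to 5.36 at 0.5. The sources used here do not say which part of Pon1 was disrupted, and a probe set that reads another part of the gene is no check. The group is called arrays labelled KO throughout, and every direction below carries this doubt.

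Some arrays stood apart. On the first principal axis of all genes, which ran from -20.3 to 28.9 over the 55 arrays, KO replicate 1 was the highest. KO replicate 4 had Xist at 11.26, against 5.51 to 5.88 in the 6 WT arrays and 5.52 to 5.82 in the other KO arrays, and it had the Y-linked genes Kdm5d, Eif2s3y and Uty at 5.57, 4.15 and 4.38. WT replicate 4 was low in genes of granule neurons and Purkinje cells, the defining neurons of the cerebellum: Gabra6, a granule neuron receptor subunit, was at 10.68 there and at 12.20 to 12.94 in the other WT arrays. All 10 arrays nonetheless carried high levels of these markers, with Calb1 of Purkinje cells at 11.80 to 12.46 in arrays labelled KO and 10.40 to 12.10 in WT arrays. Array medians were 7.40 to 7.47 in arrays labelled KO and 7.37 to 7.47 in WT arrays.

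Between arrays labelled KO and WT arrays under vehicle, 22 genes passed at an adjusted p under 0.05 (limma), which was 0.147% of all genes tested. Of these, 12 were higher in the arrays labelled KO (0.0803%) and 10 were lower (0.0669%). With each array centred on its median, 18 were higher and 7 lower. Without adjustment, 2919 genes (19.5%) had p under 0.05. Besides Pon1, the lipid enzyme gene Gdpd3 and the gene Plekhd1 moved by more than 1 on the log2 scale, both downward. Another 8 genes moved by 0.5 to 1 and 11 by less than 0.5. The count rested in part on single arrays: it was 9 without KO replicate 1, 14 without KO replicate 4, 52 without KO replicate 2 and 36 without replicate 5 of KO at CPO 0.35, which enters the shared spread. That last array shares its description number with R192 arrays of the same dose, although the titles give them another genotype. Within each of the 2 array dates, 5 genes passed, and all WT vehicle arrays of the second date share 1 description number. With the 10 vehicle arrays alone in the fit, 4 genes passed, namely Pon1, Gdpd3, Pglyrp1 and Plekhd1.

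**Figure D1:**
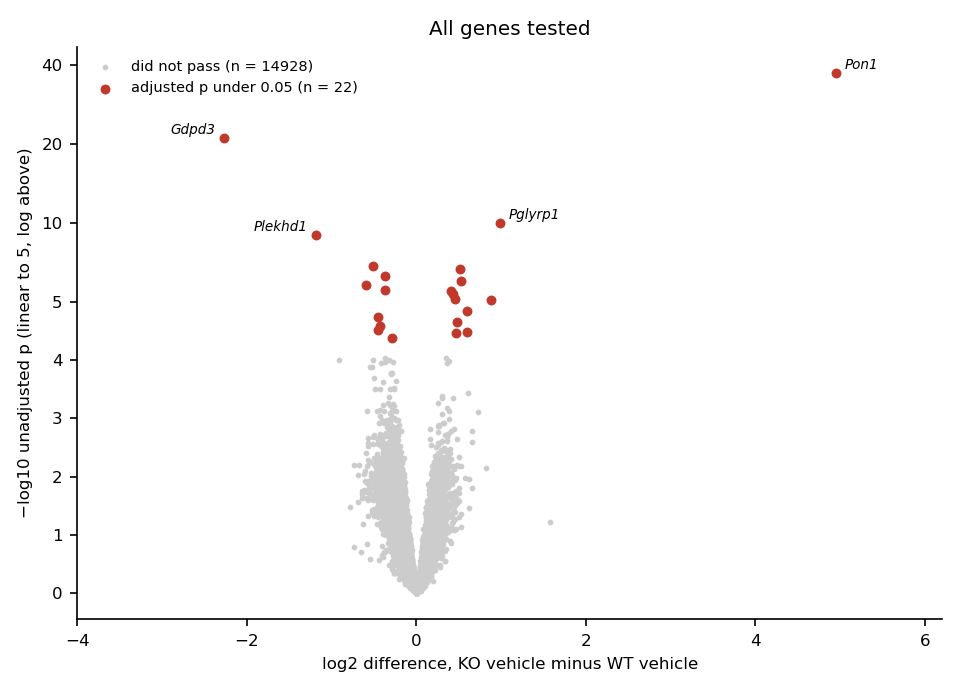
Each point is 1 of the 14950 genes tested, placed by its log2 difference (arrays labelled KO minus WT arrays, vehicle) and by its unadjusted p on a -log10 axis that is linear to 5 and logarithmic above. The 22 genes that passed are red, with Pon1 alone at the right at +4.95 and Gdpd3 at the left at -2.27.

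The upstream sequences of these 4 genes are shown because these genes passed with the 10 vehicle arrays alone in the fit. Each run is the 250 bases before the gene's start in RefSeq's mouse assembly GRCm38.p6, read 5′ to 3′ on the gene's own strand. Both strands were searched for 3 short motifs, and capitals mark a match. The motif of the CCAAT box is CCAAT, which reads ATTGG when it lies on the opposite strand. That of the GC box is GGGCGG, which reads CCGCCC there. The third, the TATA box motif TATAAA, is in none of the 4. Of 32851 RefSeq promoters of this length, 33.8% hold the first motif on either strand, 32.7% the second and 12.4% the third, and the motifs do not overlap in these 4.
Pon1, chr6:5193947-5194196, minus strand: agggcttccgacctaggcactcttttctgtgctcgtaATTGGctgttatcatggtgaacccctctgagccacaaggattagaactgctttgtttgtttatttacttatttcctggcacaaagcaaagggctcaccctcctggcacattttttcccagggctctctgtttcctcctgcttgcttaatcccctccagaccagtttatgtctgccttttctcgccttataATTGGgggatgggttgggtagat
Gdpd3, chr7:126766164-126766413, plus strand: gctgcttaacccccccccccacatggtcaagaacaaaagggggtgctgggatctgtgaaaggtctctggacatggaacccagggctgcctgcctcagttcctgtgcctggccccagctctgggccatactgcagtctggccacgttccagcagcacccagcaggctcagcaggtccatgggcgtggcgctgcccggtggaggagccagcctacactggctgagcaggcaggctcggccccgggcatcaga
Pglyrp1, chr7:18884440-18884689, plus strand: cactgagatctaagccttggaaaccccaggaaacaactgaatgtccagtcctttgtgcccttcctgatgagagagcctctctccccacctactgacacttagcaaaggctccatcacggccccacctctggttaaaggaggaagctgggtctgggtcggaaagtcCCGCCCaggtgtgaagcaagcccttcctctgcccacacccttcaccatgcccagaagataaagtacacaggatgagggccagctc
Plekhd1, chr12:80692351-80692600, plus strand: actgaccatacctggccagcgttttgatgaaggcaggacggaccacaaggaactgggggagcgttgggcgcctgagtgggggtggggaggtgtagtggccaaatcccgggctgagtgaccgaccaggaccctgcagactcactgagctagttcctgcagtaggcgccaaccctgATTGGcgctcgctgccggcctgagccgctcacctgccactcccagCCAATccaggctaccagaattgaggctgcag
Pon1 and Plekhd1 hold 2 CCAAT box matches each, Pglyrp1 holds 1 GC box match and Gdpd3 holds none of the 3 motifs. The assembly is that of the gene table, since no build is named for the array values.

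Gdpd3, which encodes a lysophospholipase D that acts on lysophospholipids, had levels of 6.18, 6.09, 6.33 and 6.48 in the arrays labelled KO. In WT arrays the lowest was 8.35, the median 8.52 and the highest 8.91. No array labelled KO came within reach of the WT range, and the KO mean lay under the filter level of 6.44. The log2 difference was -2.27 (SE 0.134, adjusted p = 5.11e-18), and it passed in every alternative in which the gene was tested.

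Pglyrp1, a secreted innate immune protein that binds bacterial peptidoglycan, had levels of 8.52, 8.92, 8.51 and 8.53 in the arrays labelled KO. In WT arrays it ran from 7.53 through a median of 7.62 to 7.81. The groups did not overlap, and the gene rose by 0.99 (SE 0.119, adjusted p = 4.83e-07). Myd88, the adaptor that carries signals from Toll-like and interleukin-1 receptors, moved the other way. Its levels were 7.11, 7.26, 7.38 and 7.18 in the arrays labelled KO, while the WT arrays ran from 7.59 through a median of 7.70 to 8.05. It fell by 0.51 (SE 0.0823, adjusted p = 0.000384), again without overlap.

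Plekhd1, which encodes a protein with a pleckstrin homology domain, had levels of 6.80, 6.62, 6.42 and 6.55 in the arrays labelled KO. In WT arrays it ran from 7.18, in replicate 4, through a median of 7.79 to 8.19. All 4 arrays labelled KO were below all 6 WT arrays, and the gene fell by 1.18 (SE 0.156, adjusted p = 3.76e-06). With the arrays of the second date alone it did not pass (-1.03, adjusted p = 0.156).

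**Figure D2:**
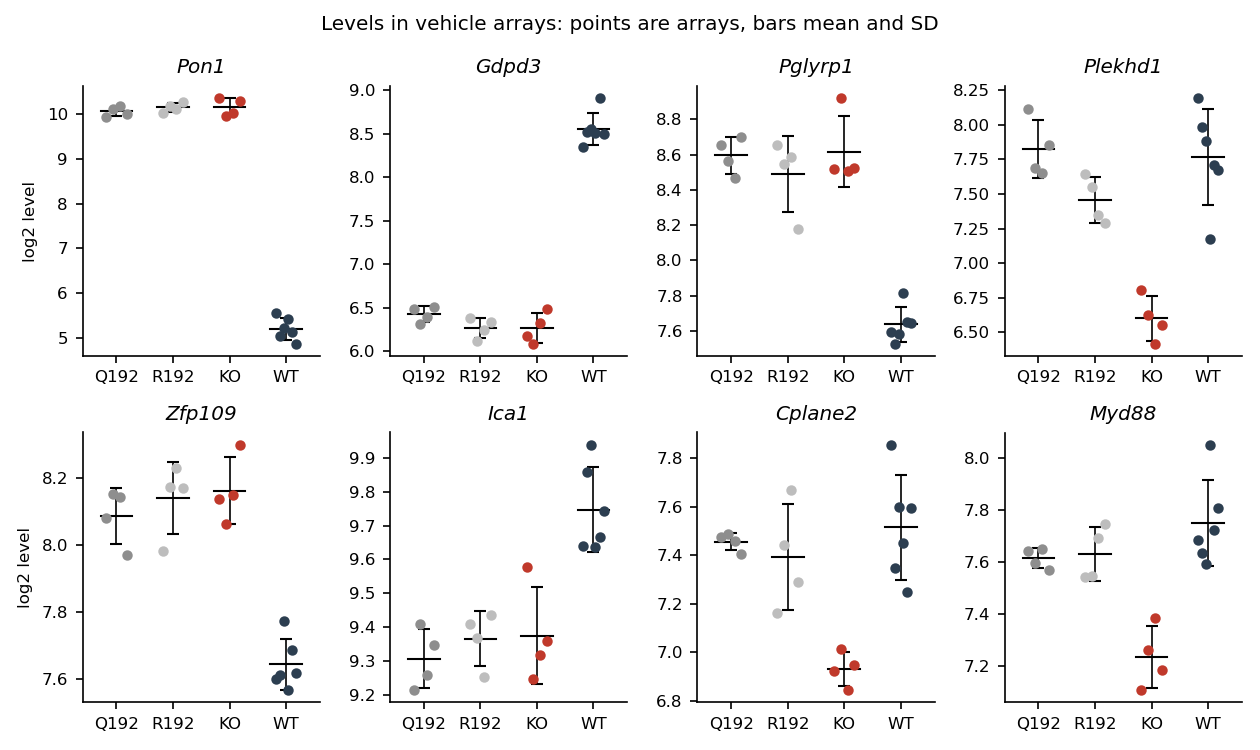
Log2 levels in vehicle arrays of the 8 genes that passed with each vehicle array left out in turn, with Q192, R192, arrays labelled KO and WT arrays from left to right; points are arrays, the long line is the mean and the bar the SD. In each panel the arrays labelled KO lie wholly above or wholly below the WT arrays. For Plekhd1, Cplane2 and Myd88 the Q192 mean lies nearer to WT than to KO. For Pon1, Gdpd3, Pglyrp1, Zfp109 and Ica1 it lies nearer to KO.

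Zfp109, Zfp974 and Zfp93, which encode zinc finger proteins, a class known for DNA binding, were among the genes that rose. Zfp109 had levels of 8.14, 8.06, 8.15 and 8.30 in the arrays labelled KO, against 7.57 (lowest), 7.62 (median) and 7.77 (highest) in WT arrays. Zfp974 had 7.56, 7.07, 7.01 and 7.50 in the arrays labelled KO, against 6.56, 6.72 and 6.81 in WT arrays. Zfp93 had 8.80, 8.66, 8.69 and 8.54 in the arrays labelled KO, against 8.08, 8.26 and 8.37 in WT arrays. None of the 3 overlapped between the groups. Zfp109 rose by 0.52 (SE 0.0858, adjusted p = 0.000549), Zfp974 by 0.60 (SE 0.124, adjusted p = 0.0145) and Zfp93 by 0.44 (SE 0.0845, adjusted p = 0.00565). Zfp974 did not pass without KO replicate 1 (adjusted p = 0.38) or without KO replicate 4 (adjusted p = 0.124), and Zfp93 did not without KO replicate 1 (adjusted p = 0.124). Counted after these values were seen, 313 tested genes have a symbol of this kind, Zfp and a number, and the 3 are 0.958% of them, against 0.147% of all genes. Of the 310 that did not pass, 209 were higher in the arrays labelled KO (67.4%, median +0.08), against 40.3% of all genes. The 3 that passed all lie on chromosome 7, where 0.754% of all tested genes passed. Whether their position plays a part was not tested.

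On chromosome 4, 4 genes passed and all 4 were lower. Cplane2, which encodes a protein of cilium formation and planar cell polarity, had levels of 6.92, 7.01, 6.84 and 6.95 in the arrays labelled KO, against 7.25, 7.52 and 7.86 (lowest, median and highest) in WT arrays. It fell by 0.59 (SE 0.108, adjusted p = 0.00275). Its neighbour Arhgef19, a guanine nucleotide exchange factor, had 6.71, 7.02, 7.0 and 6.93 in the arrays labelled KO, against 7.18, 7.29 and 7.43 in WT arrays, and fell by 0.37 (SE 0.07, adjusted p = 0.00414). Both genes were below the WT range in every array labelled KO. Necap2, an adaptor of clathrin-coated vesicles, had 8.87, 9.33, 9.59 and 9.46 in the arrays labelled KO, against 9.61, 9.73 and 9.97 in WT arrays, with KO replicate 3 just under the lowest WT array. Kazn, which encodes kazrin, a protein linked to cell junctions, had 7.41, 8.11, 8.04 and 7.93 in the arrays labelled KO, against 8.23, 8.30 and 8.43 in WT arrays. In both genes KO replicate 1 was the lowest array, and without it neither passed: Necap2 was then at -0.30 (adjusted p = 0.922) and Kazn at -0.28 (adjusted p = 0.997), against -0.45 for both with all arrays (adjusted p = 0.0168 and 0.0238). Arhgef19 also did not pass without it (-0.30, adjusted p = 0.164).

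Near Pon1 on chromosome 6, Glcci1 and Ica1 passed in opposite directions although no tested gene lies between them. Glcci1, first described as a glucocorticoid-induced transcript, had levels of 12.00, 11.87, 11.79 and 11.57 in the arrays labelled KO, against 11.12, 11.24 and 11.59 in WT arrays (lowest, median and highest). KO replicate 4 lay just below the highest WT array, so the groups overlapped. Ica1, which encodes an autoantigen of pancreatic islets found on secretory vesicles, had 9.58, 9.25, 9.32 and 9.36 in the arrays labelled KO, against 9.64, 9.70 and 9.94 in WT arrays. Its groups did not overlap, although KO replicate 1 came close to the lowest WT array. Glcci1 rose by 0.52 (SE 0.0933, adjusted p = 0.00183) and Ica1 fell by 0.37 (SE 0.064, adjusted p = 0.00114). Without KO replicate 1 Glcci1 did not pass (+0.46, adjusted p = 0.0597), while Ica1 did (-0.43, adjusted p = 0.000256). With arrays centred on their medians Ica1 did not pass (-0.32, adjusted p = 0.0555).

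Among the other genes that rose, Psg16, of the pregnancy-specific glycoprotein family, had levels of 8.67, 7.88, 8.01 and 7.86 in the arrays labelled KO, against 6.48, 7.37 and 7.59 in WT arrays (lowest, median and highest). Etfrf1, a regulator of the mitochondrial electron transfer flavoprotein, had 9.31, 8.82, 8.97 and 9.45 in the arrays labelled KO, against 8.27, 8.55 and 8.77 in WT arrays. Trmt5, a tRNA methyltransferase, had 9.24, 8.53, 8.73 and 8.80 in the arrays labelled KO, against 8.10, 8.39 and 8.51 in WT arrays. None of these 3 genes overlapped between groups, but KO replicate 1 was highest for Psg16 and Trmt5 and KO replicate 4 for Etfrf1. Their log2 differences were +0.88, +0.59 and +0.47 with all arrays, and none of the 3 passed without KO replicate 1 (adjusted p = 0.336, 0.38 and 0.997). Etfrf1 passed in 5 of the 10 fits that left out 1 vehicle array.

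Rps15a, a protein of the small ribosomal subunit, had levels of 10.04, 9.78, 9.96 and 10.09 in the arrays labelled KO, against 9.39, 9.56 and 9.82 in WT arrays (lowest, median and highest). KO replicate 2 lay below the highest WT array, so the groups overlapped. The gene rose by 0.41 (SE 0.0772, adjusted p = 0.00416), and it passed neither without KO replicate 1 (adjusted p = 0.0592) nor without KO replicate 4 (adjusted p = 0.0704). The remaining rises were the predicted genes Gm10589 (+0.45, adjusted p = 0.00827) and Gm8995 (+0.48, adjusted p = 0.0192), whose groups did not overlap and whose calls were lost when either KO replicate 1 or KO replicate 4 was left out. The WT mean of Gm8995, 6.25, lay under the filter level. Ribosomal protein genes, the Psg family and the zinc finger family have near-identical copies, and probes may not tell these copies apart.

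The remaining falls were Sae1, a subunit of the enzyme that activates SUMO, and Gpr135, an orphan G protein-coupled receptor. Sae1 had levels of 9.60, 9.98, 9.98 and 9.78 in the arrays labelled KO, against 10.12, 10.22 and 10.45 in WT arrays (lowest, median and highest), and fell by 0.43 (adjusted p = 0.0218). Gpr135 had 8.08, 8.20, 8.24 and 8.09 in the arrays labelled KO, against 8.36, 8.41 and 8.54 in WT arrays, and fell by 0.28 (adjusted p = 0.028), the smallest change among the 22. Both were below WT in every array. Each passed in 6 of the 10 fits that left out 1 vehicle array, and neither passed with arrays centred on their medians. In all, 20 of the 22 genes did not overlap between groups, 10 above WT and 10 below, against 1.34% of all genes tested (0.241% above and 1.1% below), and since the 22 were called on these arrays the count is a description of them.

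The other paraoxonases and the cholinesterases did not pass between arrays labelled KO and WT arrays under vehicle. Pon2, a lactonase of most tissues, averaged 9.59 ± 0.11 in the arrays labelled KO and 9.86 ± 0.20 in WT arrays (SD, n = 4 and 6), a difference of -0.26 (95% interval -0.44 to -0.08, adjusted p = 0.214). Pon3, a lactonase bound to lipoprotein, averaged 7.04 ± 0.26 in the arrays labelled KO and 7.26 ± 0.24 in WT arrays, a difference of -0.20 (interval -0.50 to 0.10, adjusted p = 0.428). In both genes the levels of the groups overlapped. Elsewhere Pon2 did pass, for KO minus WT at CPO 0.5 (-0.64, limma adjusted p = 0.00198) and for R192 minus WT under vehicle (-0.36, adjusted p = 0.0193). It did not for KO minus WT at CPO 0.35 (-0.22, adjusted p = 0.217) or for Q192 minus WT under vehicle (-0.36, adjusted p = 0.134). Pon3 and the cholinesterases passed in none of these comparisons. Ache, which encodes acetylcholinesterase, had levels of 7.80, 8.94, 8.60 and 8.56 in the arrays labelled KO, against 8.74, 8.92 and 9.37 in WT arrays (lowest, median and highest). KO replicate 1 was the lowest of the 10, and the difference was -0.53 (interval -0.93 to -0.13, adjusted p = 0.214) with it and -0.29 (adjusted p = 0.997) without it. Bche, which encodes butyrylcholinesterase, averaged 7.54 ± 0.12 in the arrays labelled KO and 7.59 ± 0.31 in WT arrays, a difference of -0.04 (interval -0.32 to 0.25, adjusted p = 0.9).

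The 22 genes lay on few chromosomes. Chromosome 7 held 9 of them (7 higher, 2 lower, of 1193 tested), chromosomes 4 and 6 held 4 each (of 934 and 739), chromosome 12 held 3 (of 551) and chromosome 9 held Myd88. Gm10589 has no chromosome in the gene table. By the order of tested genes, Cplane2 and Arhgef19 were adjacent on chromosome 4, and Necap2 and Cplane2 had 3 tested genes between them. The 25 tested genes from Necap2 to Kazn, a run whose ends are passing genes, held 4 that passed, all lower. Of the 21 that did not pass, 4 were higher and 17 lower (median -0.09), against 40.3% higher and a median of -0.03 over all genes. On chromosome 7, Zfp109 and Zfp93 had 1 tested gene between them, Psg16 and Pglyrp1 had 4, and Sae1 and Psg16 had 17. The 158 tested genes from Sae1 to Zfp974, again with passing genes at the ends, held 6 that passed, 5 of them higher. Of the 152 that did not pass, 36 were higher and 116 lower (median -0.10). Gdpd3 lay apart, with 76 tested genes between it and Rps15a. On chromosome 12, Gpr135 and Trmt5 had 11 tested genes between them, and Trmt5 and Plekhd1 had 48. Of the 59 genes from Gpr135 to Plekhd1 that did not pass, 24 were higher and 35 lower (median -0.05).

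Around Pon1, 41 tested genes were counted, 11 on the side towards the chromosome's start and 30 on the other. Of these, 2 passed, Glcci1 and Ica1 (4.88%, against 0.147% of all genes), and 11 had an unadjusted p under 0.05 (26.8%, against 19.5% of all genes), 6 higher and 5 lower. Their median was 0.02. Closer to Pon1 the values did not pass: Casd1, a sialic acid O-acetyltransferase, was at +0.30 (adjusted p = 0.133), Pdk4, a kinase that inhibits pyruvate dehydrogenase, was at +0.48 (adjusted p = 0.214), and Peg10, an imprinted gene derived from a retrotransposon, was at -0.39 (adjusted p = 0.216). Pon1 and Glcci1 had 15 tested genes between them.

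**Figure D3:**
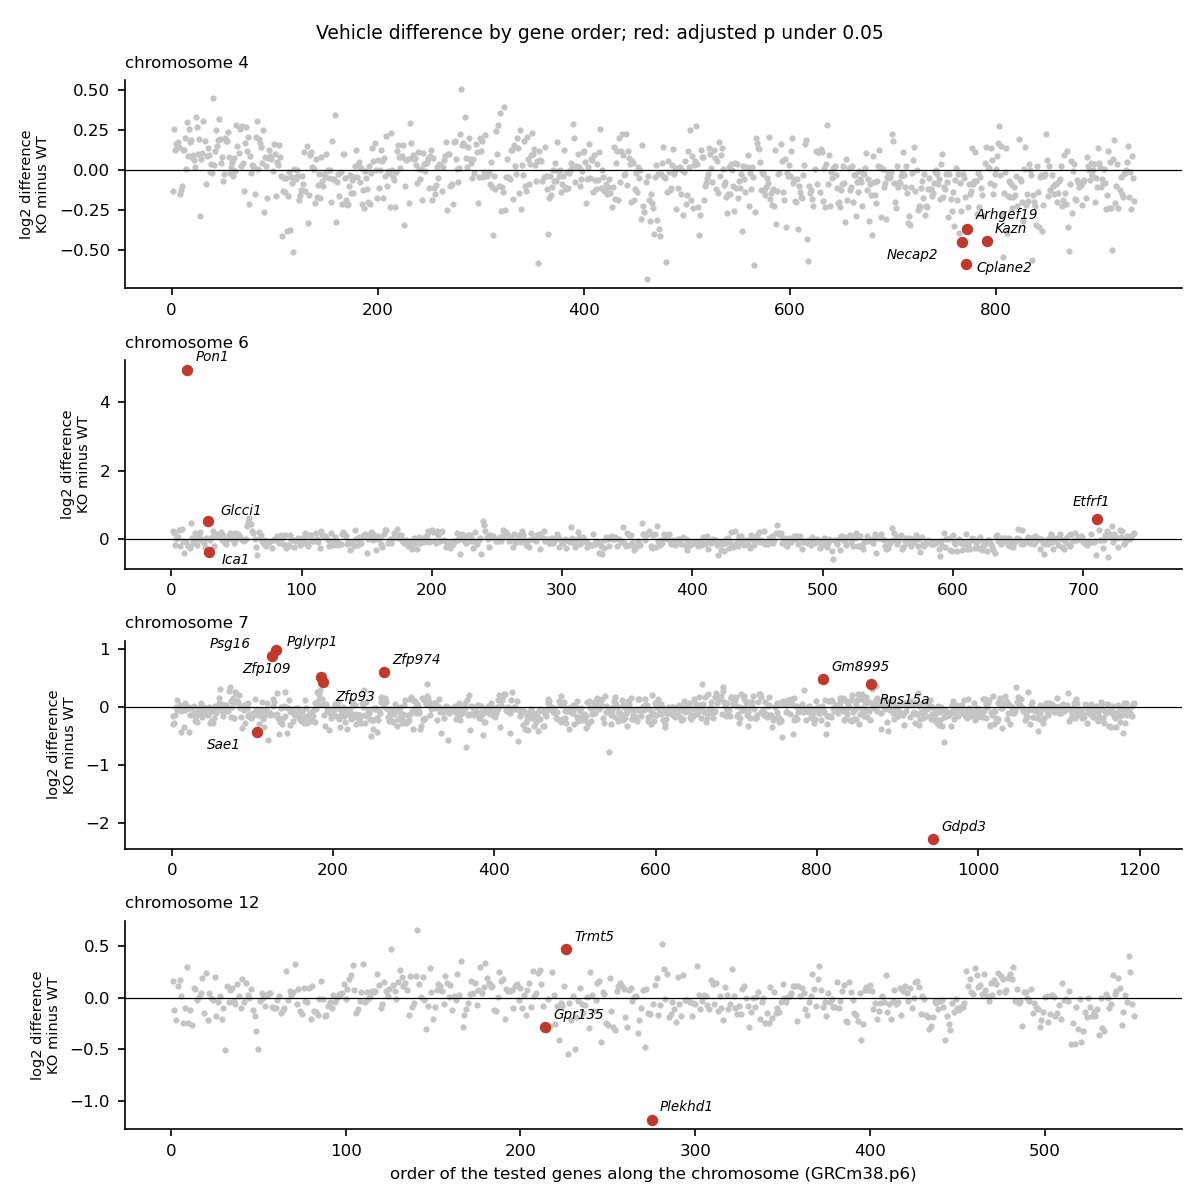
Log2 difference (arrays labelled KO minus WT arrays, vehicle) of each tested gene on chromosomes 4, 6, 7 and 12 against its place in the order of tested genes; each panel has its own vertical scale. Red marks the 20 of the 22 passing genes that lie there, with Necap2, Cplane2, Arhgef19 and Kazn close together and lower on chromosome 4.

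The same genotype contrast was read in CPO-treated arrays, which share no array with the vehicle contrast. At 0.35 mg/kg/day (5 arrays labelled KO, 6 WT), 34 genes passed (0.227%), and at 0.5 mg/kg/day (3 and 3) 33 passed (0.221%). The same 7 genes passed in all 3 contrasts: Pon1, Gdpd3, Pglyrp1, Plekhd1, Zfp109, Ica1 and Cplane2. They were 31.8% of the 22 vehicle genes, 20.6% of those at 0.35 and 21.2% of those at 0.5. The sign was the same in 22 of the 22 genes at 0.35 and in 19 at 0.5, against 38.2% and 33.0% of all genes. Leaving out replicate 5 of KO at 0.35 gave 58 genes at 0.35 and 203 at 0.5, and leaving out WT vehicle replicate 4 gave 207 at 0.5. Within the first and second date, 4 and 261 genes passed at 0.35, and 2 passed in each date at 0.5. Xist ran from 5.43 through a median of 5.66 to 11.33 in WT arrays at 0.35. In arrays labelled KO at 0.35 it ran from 5.57 to 5.99. Kdm5d ran from 5.29 to 9.29 and from 8.87 to 9.52 in these groups. With Xist as covariate, 12 genes passed at 0.35.

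Gdpd3 was at 6.10 to 6.48 in arrays labelled KO and 8.04 to 9.18 in WT arrays at CPO 0.35, and at 6.00 to 6.17 in arrays labelled KO and 8.28 to 8.61 in WT arrays at CPO 0.5. Its log2 difference was -2.27 under vehicle, -2.21 at 0.35 and -2.36 at 0.5. Pglyrp1 was at 8.13 to 8.81 in arrays labelled KO and 7.38 to 7.67 in WT arrays at 0.35, and at 8.61 to 8.99 in arrays labelled KO and 7.67 to 7.82 in WT arrays at 0.5. The groups of both genes stayed apart at every dose, and for Pglyrp1 the 3 differences were +0.99, +0.98 and +0.97. Plekhd1 differed by -1.18, -1.11 and -0.87, Cplane2 by -0.59, -0.54 and -0.58, Zfp109 by +0.52, +0.40 and +0.51, and Ica1 by -0.37, -0.51 and -0.58. Gdpd3 in arrays labelled KO, at or under 6.48, and Pon1 in WT arrays lay near or under the filter level at every dose, so array background bounds these differences too. Plekhd1 overlapped at 0.35, where the highest array labelled KO had 7.45 and the lowest WT array 7.32. Myd88, the fifth gene by p under vehicle, differed by -0.51 under vehicle, -0.12 at 0.35 (adjusted p = 0.492) and -0.22 at 0.5 (adjusted p = 0.214).

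Whether the genotype difference itself depended on CPO was tested as a difference of contrasts. Between CPO 0.35 and vehicle, 1 gene passed (0.00669%), Mid1, a ubiquitin ligase gene at the pseudoautosomal boundary (-1.49, adjusted p = 0.0386), and none of the 22 did (limma; 25% of all genes had an unadjusted p under 0.05). The share that passed after adjustment was 16.6% of all genes without replicate 5 of KO at 0.35, 9.4% without KO vehicle replicate 2 and 5.06% without WT vehicle replicate 1. With Xist as covariate 0 genes passed, Mid1 included, and 1572 had an unadjusted p under 0.05 (limma). Sex is not labelled, and whether the uneven Xist levels of these groups play a part in the Mid1 value was not tested. Between CPO 0.5 and vehicle, 1375 genes passed (9.2%), 5.63% of all genes with a change upward and 3.57% downward, and 31.7% had an unadjusted p under 0.05. Among the 1375 were 3 of the 22. Since the 22 were called on the same vehicle arrays that enter this test, that choice itself favours a smaller difference at CPO 0.5. Etfrf1 had a genotype difference of -0.15 at 0.5 and +0.59 under vehicle, a change of -0.75 (SE 0.21, adjusted p = 0.038). Rps15a had -0.02 and +0.41, a change of -0.42 (SE 0.125, adjusted p = 0.0388), and Trmt5 had -0.06 and +0.47, a change of -0.53 (SE 0.166, adjusted p = 0.0438). These calls depended on single arrays. In this test limma passed 0 genes when KO vehicle replicate 1 or 4, or WT vehicle replicate 1 or 5, was left out, although 2820, 4190, 4384 and 4317 genes had p under 0.05 before adjustment. By contrast 2979 passed without KO vehicle replicate 2 and 2169 without replicate 3. The count was 2075 without replicate 5 of KO at 0.35, 788 without WT vehicle replicate 2 and 854 without replicate 6.

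**Figure D4:**
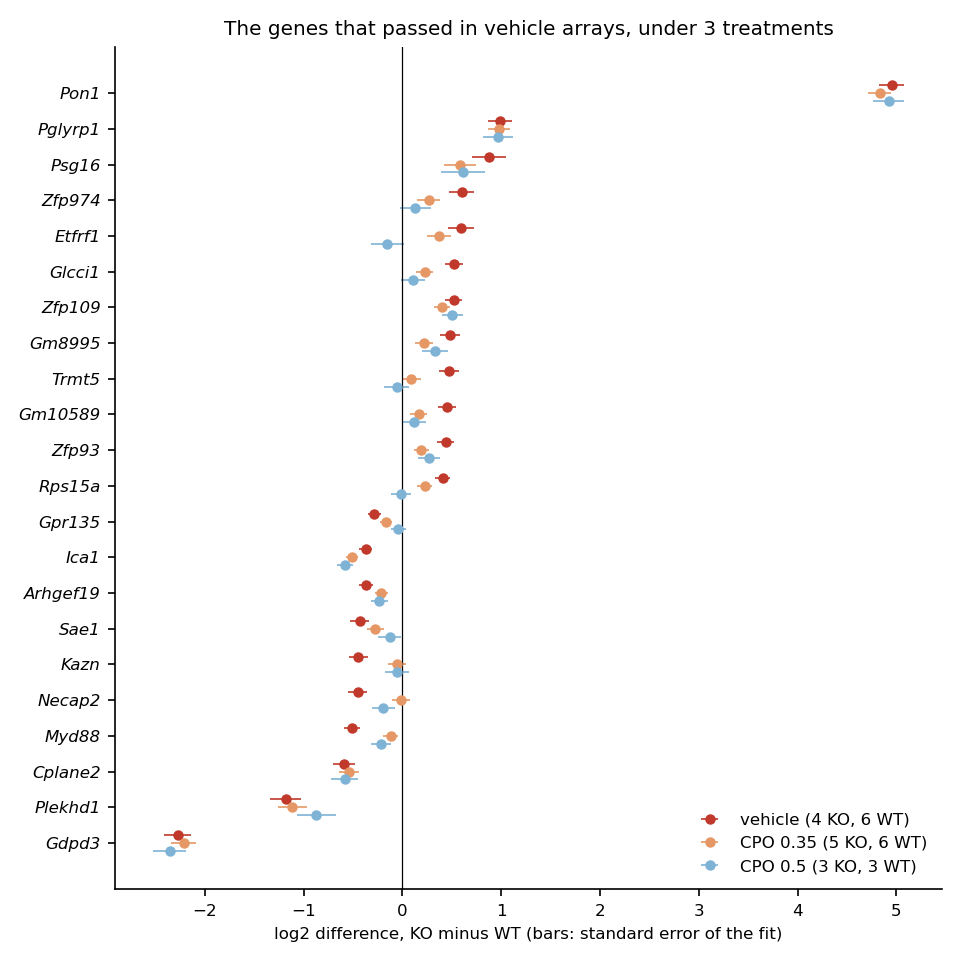
Log2 difference (arrays labelled KO minus WT arrays) of the 22 genes that passed under vehicle, with vehicle, CPO 0.35 and CPO 0.5 drawn from top to bottom for each gene; bars are the standard error of the fit. Pon1, Gdpd3, Pglyrp1, Plekhd1, Zfp109, Ica1 and Cplane2 passed in all 3 contrasts, each with 1 sign, while Necap2, Kazn, Trmt5 and Rps15a lie near 0 in at least 1 of the CPO contrasts.

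The transgenic vehicle arrays were set against the same arrays labelled KO, so these values share the KO arrays with the vehicle contrast. Between Q192 and arrays labelled KO, 15 genes passed (0.1%), among them Plekhd1, Cplane2 and Arhgef19 of the 22. Between R192 and arrays labelled KO, 4 passed (0.0268%), with Plekhd1 among them. Plekhd1 had levels of 8.11, 7.69, 7.65 and 7.86 in Q192 and 7.64, 7.55, 7.35 and 7.29 in R192, all above the highest array labelled KO (6.80). The difference was +1.23 for Q192 minus KO and +0.85 (adjusted p = 0.0333) for R192 minus KO. Cplane2 differed by +0.52 (adjusted p = 0.0498) and Arhgef19 by +0.40 (adjusted p = 0.00555) for Q192 minus KO. Pon1 was at 9.93 to 10.17 in Q192 and 10.02 to 10.27 in R192, and Gdpd3 at 6.32 to 6.51 in Q192 and 6.12 to 6.38 in R192, within or close to the range of the arrays labelled KO. The WT vehicle arrays, also shared, gave a second comparison. Pon1, Gdpd3, Pglyrp1, Zfp109, Ica1, Glcci1, Rps15a and Sae1 passed in both lines minus WT, with the sign they had in KO minus WT. Pglyrp1 was at +0.97 for Q192 and +0.87 for R192. Zfp93, Gm10589, Psg16, Zfp974, Gm8995 and Etfrf1 passed for R192 only. Plekhd1, Myd88, Cplane2, Arhgef19, Necap2, Kazn, Trmt5 and Gpr135 passed for neither. The share of all genes that passed for each line minus WT was not counted, so the calls of the lines cannot be set against each other. Psg16, for example, differed by +0.63 in both lines, with limma adjusted p = 0.347 for Q192 and 0.0305 for R192. The 22 were called on the same WT arrays, a choice that favours the same sign here.

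Lists of pathway and cell type genes were then counted. Over 34 lists, 734 members were tested and 1 passed, Pon1, so the lists are given by counts of sign and by medians, to be read beside 40.3% of all genes being higher and a median of -0.03. Since the tissue was measured in bulk, fewer cells of a type and less RNA per cell cannot be told apart. The cholinergic genes were mostly lower, 20 of 21 (median -0.10), as were cholesterol synthesis genes, 19 of 19 (median -0.17, and -0.09 without WT replicate 4), and immediate early genes, which respond to neuronal activity, 23 of 29 (median -0.15, and -0.08 without KO replicate 1). Among these, Srebf2, the main activator of cholesterol synthesis genes, was at -0.43, and Egr1, an immediate early transcription factor, was at -0.33, and neither passed. Ribosomal protein genes were mostly higher, 41 of 43 (median +0.12), in a list that did not hold Rps15a. Respiratory chain genes were higher in 48 of 66 (median +0.07, +0.05 without KO replicate 1 and +0.10 without WT replicate 4). With arrays centred on their medians the median of all genes was 0.02, that of the cholinergic genes -0.05 and that of the respiratory chain genes +0.12. Rpsa, a protein of the small subunit, was at +0.32 and did not pass here, but it did with array weights, with arrays centred on their medians, with either marker covariate and without WT replicate 4.

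Marker lists of other cell types did not all lean the same way. Microglia markers were lower in 20 of 20 (median -0.18, -0.22 without KO replicate 1 and -0.13 without WT replicate 4). Their mean level was 7.85, 7.98, 7.90 and 8.04 in the arrays labelled KO, against 7.83, 8.15 and 8.60 in WT arrays (lowest, median and highest), so 1 WT array, replicate 1, lay below all arrays labelled KO. Oligodendrocyte and myelin markers were lower in 19 of 21 (median -0.24), and the median was -0.09 without KO replicate 1, which had the lowest mean level of the 10 (10.33, with the other 3 at 10.94 to 11.11). Brainstem and midbrain markers, genes of tissue next to the cerebellum, were lower in 29 of 31 (median -0.28, and -0.17 without KO replicate 1). The WT arrays held both the lowest and the highest mean of these markers, 7.81 and 8.90, and the arrays labelled KO lay between at 7.94 to 8.46. Oligodendrocyte progenitor markers were lower in 10 of 10 (median -0.21, and -0.12 without KO replicate 1 or without WT replicate 4). Markers of endothelial cells and pericytes were lower in 16 of 19 (median -0.17, -0.19 without KO replicate 1 and -0.12 without WT replicate 4). Bergmann glia and astrocyte markers, with 12 of 19 lower (median -0.02), and meningeal markers, with 9 of 15 lower (median -0.02), lay near all genes. The Bergmann glia median was -0.06 without KO replicate 1 and -0.07 without WT replicate 4, and the meningeal one -0.18 and 0.0034. Choroid plexus and ependymal markers were higher in 8 of 14 (median +0.05, and -0.13 without KO replicate 1).

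Markers of granule neurons leaned higher, 16 of 21 (median +0.17), but the median was -0.06 without WT replicate 4, where their mean level was 9.08 against 10.13 to 11.04 in the other WT arrays and 10.07 to 10.61 in the arrays labelled KO. Purkinje cell markers were higher in 12 of 17 (median +0.17, 0.10 without KO replicate 1 and 0.03 without WT replicate 4). The synaptic vesicle genes were lower in 24 of 37 (median -0.18, and -0.06 without KO replicate 1). Whether these shifts play a part in the calls of single genes was not tested, beyond the fits with marker means as a covariate: with brainstem markers 25 genes passed and with granule neuron markers 46.

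**Figure D5:**
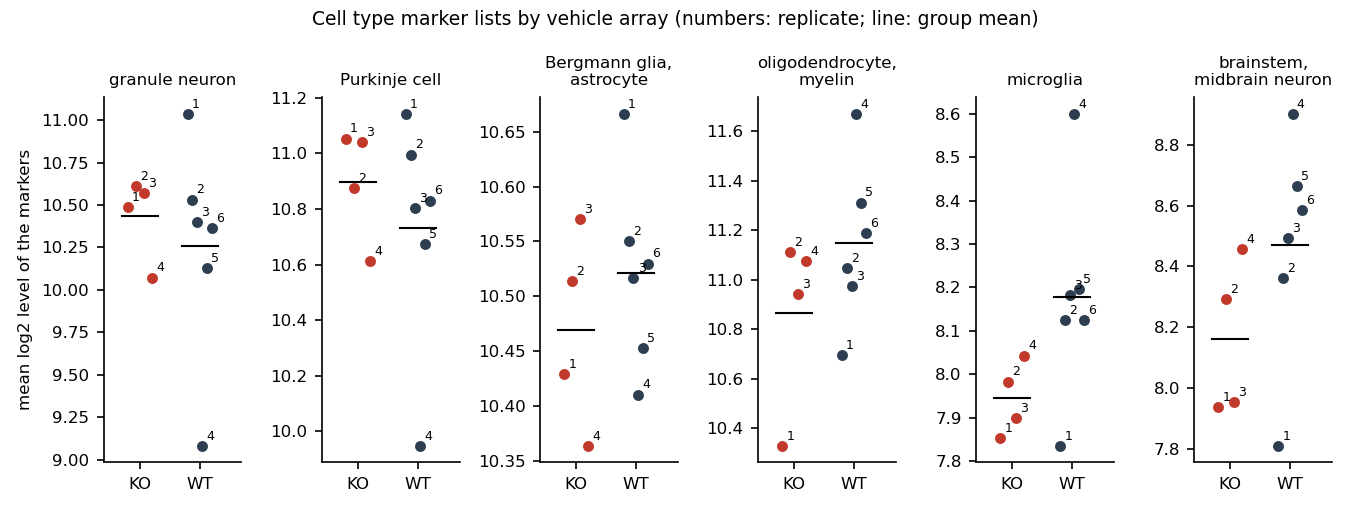
Mean log2 level of 6 marker lists in each vehicle array, arrays labelled KO on the left and WT arrays on the right of each panel, with the replicate number beside each point and a line at the group mean; each panel has its own scale. WT replicate 4 is lowest for granule neuron and Purkinje cell markers and highest for microglia, oligodendrocyte and brainstem markers, and KO replicate 1 is lowest for oligodendrocyte markers.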

How the data were processed

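The deposited table holds log2 expression values of 55 arrays. Per the submitters' processing notes, the authors made these log2 values with Affymetrix Expression Console 1.1 and RMA, a method that subtracts background, gives every array the same distribution and combines probes into 1 value. The base was taken as 2 from the method and from the range of 1.15 to 14.8. No genome build is named, and no further normalisation was applied.

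Of the probe sets, 1621 carried several symbols and 12147 none, and these were left out. Where a gene had more than 1 probe set (999 genes), that with the highest mean over the arrays stood for it. Genes whose mean level was above the 25th percentile (6.44) were kept, and 3 sex-linked genes were left out, because sex is not labelled. limma 3.58.1 in R 4.3.3 fitted all 55 arrays with a mean per group, the array date (2 dates, both in each group) and a correlation of 0.131 between arrays that share a description number, with a variance trend and 42 residual degrees of freedom. A gene passed at a Benjamini-Hochberg adjusted p under 0.05 over all 14950 genes. Intervals are at 95%. For arrays, their number limits the precision. The smallest root mean square difference among 21 pairs of vehicle arrays within groups was 0.161, so none was a copy of another. That value cannot tell whether arrays came from the same animal.

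All passing genes were named if they were 30 or fewer, with Pon1, Pon2, Pon3, Ache and Bche. List members and genes beside Pon1 were named as values where they had the smallest p, and further genes where an array or a difference of contrasts turned on them. The members, lists and tests were chosen with earlier results of these data known. The fit was also run on simulated data with independent noise and no number correlation. That setting differs from the data, so the run does not measure the error rate of the calls given here. Chromosomes, gene order and promoters come from RefSeq (GRCm38.p6). Figures were drawn in Python 3.11.15. Alternatives changed the fit, scale, filter, probe set rule, dates, covariates and arrays, 1 at a time, and were extended to the CPO contrasts, list members and genes beside Pon1 after the data were seen.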

Additional observations from a re-analysis of the deposited data

Results flagged for a closer look

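In 4 of 52 groups of levels checked, 1 array lay far from the others by Dixon's test, which chance does in about 1 in 20 groups. Pglyrp1 in KO replicate 2 was at 8.92, with the next array labelled KO at 8.53. Gdpd3 in WT replicate 5 was at 8.91, with the next WT array at 8.55. Gm10589 in WT replicate 2 was at 7.33, with the next at 7.59, and Trmt5 in WT replicate 5 was at 8.10, with the next at 8.38. The difference between arrays labelled KO and WT arrays changed from vehicle to CPO 0.5 for 3 genes, by limma's test of the difference of contrasts. It went from +0.59 to -0.15 for Etfrf1 (a change of -0.75), from +0.47 to -0.06 for Trmt5 (-0.53) and from +0.41 to -0.02 for Rps15a (-0.42). The genes had been picked on the vehicle arrays that this test shares, a choice that favours a smaller difference at CPO 0.5. These 3 calls were lost without KO vehicle replicate 1 or 4, or WT vehicle replicate 1 or 5, where 0 genes passed and 2820 to 4384 had an unadjusted p under 0.05.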

How the results depend on the processing

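Pon1 passed under all 28 alternatives, with 4.89 to 5.03 when 1 vehicle array was left out. Of the 22 genes, Pon1, Gdpd3 and Pglyrp1 passed in every alternative in which they were tested, and 8 passed with each vehicle array left out in turn. No sign changed among the 22, whereas Bche, which did not pass, turned to 0.0017 with the replicate block, 0.025 with arrays of 1 number averaged, 0.017 with centring, 0.097 in date 1 and 0.047 and 0.029 with brainstem or granule neuron markers as covariate. It was 0.0030 without KO replicate 3, 0.048 without WT replicate 4, and -0.11 to 0.048 over all such fits.

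The 22 calls became 41 without the number correlation, 4 with the 10 vehicle arrays alone, 37 with array weights, 35 with arrays of 1 number averaged, 14 above the 50th percentile of level, 5 in each date, 46 with granule neuron markers and 36 without replicate 5 of KO at CPO 0.35. Of the 37 with array weights, 15 were among the 22. With the first principal axis as covariate 16 genes passed, 10 of them among the 22, and 420 had an unadjusted p under 0.05 (limma). With Xist as covariate 19 passed, 17 of them among the 22. Leaving out 1 vehicle array gave 9 to 52. The genes beside Pon1 that passed numbered 0 with the vehicle arrays alone (1578 of all genes at an unadjusted p under 0.05) and in either date (944 and 1367), 1 with centring, and 1 to 3 with an array left out. List members that passed numbered 3 with array weights, 2 with centring or with either marker covariate, and 1 to 3 with an array left out.

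At CPO 0.35, 88 genes passed with the replicate block, 63 with array weights, 18 with numbers averaged, 4 and 261 in the dates, 18, 21, 66 and 12 with brainstem markers, granule neuron markers, the first axis or Xist as covariate, 58 without replicate 5 of KO at 0.35, and 32 to 40 with a vehicle array left out. At CPO 0.5 the same settings gave 62, 2117, 12, 2 and 2, then 52, 16 and 17 for the first 3 covariates, 203, and 24 to 207, with 337 without the number correlation.

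In the test of CPO 0.35 against vehicle, 3.38% of genes passed without the number correlation, 0.0134% with numbers averaged, 6.17% in date 2, 16.6% without replicate 5 of KO at 0.35, and 0 genes with the replicate block, brainstem markers, granule neuron markers or Xist (3870, 455, 3436 and 1572 unadjusted, limma). An array left out gave 0 to 9.4%. At 0.5 it was 19.4% with numbers averaged, 1.89% without the filter, 16.8% with brainstem markers, 13.9% without replicate 5 of KO at 0.35, and 0 genes in either date or with granule neuron markers, the first axis or Xist (1163, 3504, 4774, 620 and 4421 unadjusted). An array left out gave 0 to 19.9%. The cause of these changes was not tested.

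The replicate block on the title's numbers kept 22 calls under vehicle, 20 of them the same genes. Same-numbered arrays labelled KO and WT arrays had correlations of 0.147, -0.162, -0.468 and 0.517, against -0.668 to 0.556 for pairs with unlike numbers. So few values cannot decide whether the numbers pair the arrays.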
